A study of Mus musculus with 34 samples.

Results

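The 48 genes described here act in mitosis or in the G2 phase that precedes it. They were taken by name: the rows of the deposited count table whose Entrez Gene ID maps to the symbol of a mitotic regulator, spindle protein, kinetochore protein or chromosome structure protein. The symbols gave 48 rows of the 24475 genes in the table, and all 48 passed the filter on low counts in each fit. For the description they were ordered by role into 9 classes: cyclins and CDK1 (4 genes), mitotic kinases with the transcription factor Foxm1 (6), the spindle checkpoint (3), the anaphase-promoting complex with the securin Pttg1 (3), the centromere and kinetochore (6), the chromosomal passenger complex (3), kinesin motors (8), spindle assembly and cytokinesis (9), and chromosome structure (6).

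RNA-seq was done on sorted myeloid cells of C57/Bl6 mice in 34 libraries that the titles place in 9 groups. In vivo, 4 libraries each came from monocytes of the LLC tumor that were Ly6C+ CD88+ Sca1- (TuMon2), from monocytes of the MC38 tumor that were Ly6C+ CD88+ Sca1+ (TuMon1), from tumor macrophages of each tumor (TuMac), and from Ly6C+ monocytes of the spleen of mice with each tumor (spMon). LLC is a mouse lung carcinoma line and MC38 a mouse colon carcinoma line. In vitro, the labels give Ly6C+ bone marrow monocytes left untreated (control, 4 libraries), exposed to LLC supernatant and labelled Ly6C+ CD88+ Sca1- (3), or exposed to MC38 supernatant and labelled Ly6C+ CD88+ Sca1+ (3). The Sca1 label and the tumor line change together in each comparison of TuMon1 with TuMon2 and of the supernatants, so they cannot be told apart. The labels give no age, sex or culture time, and do not say whether replicates are separate mice or cultures. The p-values therefore measure the spread between these samples, which may be technical.

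A dividing cell makes most of these transcripts late in its cycle, between the end of DNA replication and mitosis, and a resting cell keeps most of them low. Cyclin B with CDK1 starts mitosis, condensin and topoisomerase compact and untangle the chromosomes, kinetochores and kinesins attach and move them, and the spindle checkpoint holds the cell until every chromosome is attached. The anaphase-promoting complex then marks cyclin B and securin for destruction, and the central spindle proteins guide the cut between the daughter cells. Classical monocytes are generally held to leave the bone marrow after their last divisions, whereas some tissue macrophages can divide. In bulk RNA, a larger share of dividing cells and more RNA of these genes per dividing cell cannot be told apart.

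Many late cell cycle promoters carry a CHR (cell cycle genes homology region), a short site read by the MuvB complex, together with CCAAT boxes, the site of NF-Y. RefSeq promoter entries (assembly GRCm38.p6) were found for 41 of the 48 genes, and none for Smc4, Tpx2, Ccna2, Kif20a, Incenp, Foxm1 and Aurkb. The 250 bases before each start were searched on both strands for the CHR letters TTTGAA or TTCGAA, and separately for CCAAT. The CHR letters were found in 17 of the 41 genes (41.5%), against 19.6% of all 27025 genes with an entry and 15.2% of the 10446 such genes tested in tumor monocytes. CCAAT was found in 31 of the 41 (75.6%), against 37.5% of all genes and 41.0% of the tested genes. At least 2 copies were found in 22 (53.7%), against 11.5% and 15.4%. In a list of 37 G1/S and DNA replication genes with an entry, 21.6% held the CHR letters and 59.5% held CCAAT, and in a list of 54 other G2/M genes with an entry 40.7% and 64.8% did. These are matches of letters and not shown sites.

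The promoters of 6 genes are printed, 1 for each of the 6 roles in which a searched gene held the CHR letters. In each role it is the gene with these letters and the smallest adjusted p in tumor monocytes. No searched gene of the mitotic kinases, the centromere and kinetochore or the passenger complex held the CHR letters. Each is the 250 bases before the start on the strand of the gene, 5′ to 3′, and capitals mark the CHR and CCAAT matches of either strand (TTCAAA and ATTGG are the matches read on the other strand). The windows lie at chr4:52438971-52439220 (Smc2, plus strand), chr2:164769679-164769928 (Ube2c, plus), chr2:118597961-118598210 (Bub1b, plus), chr9:122950831-122951080 (Kif15, plus), chr10:69352913-69353162 (Cdk1, minus) and chr3:27153855-27154104 (Ect2, minus).
Smc2: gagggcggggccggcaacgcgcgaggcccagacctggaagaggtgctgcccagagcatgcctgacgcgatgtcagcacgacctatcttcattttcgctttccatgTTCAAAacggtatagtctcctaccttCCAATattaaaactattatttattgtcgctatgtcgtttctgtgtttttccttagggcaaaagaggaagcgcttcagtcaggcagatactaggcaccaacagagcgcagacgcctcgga
Ube2c: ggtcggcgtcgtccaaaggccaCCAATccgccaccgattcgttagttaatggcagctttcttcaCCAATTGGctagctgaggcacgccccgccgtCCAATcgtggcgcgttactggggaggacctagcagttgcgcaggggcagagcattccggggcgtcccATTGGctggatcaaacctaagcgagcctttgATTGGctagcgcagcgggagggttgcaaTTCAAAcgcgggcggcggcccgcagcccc
Bub1b: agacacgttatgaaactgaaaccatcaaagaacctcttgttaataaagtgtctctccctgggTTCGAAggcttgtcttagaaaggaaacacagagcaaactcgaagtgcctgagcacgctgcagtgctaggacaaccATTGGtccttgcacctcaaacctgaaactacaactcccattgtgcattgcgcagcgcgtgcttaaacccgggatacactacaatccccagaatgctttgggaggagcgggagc
Kif15: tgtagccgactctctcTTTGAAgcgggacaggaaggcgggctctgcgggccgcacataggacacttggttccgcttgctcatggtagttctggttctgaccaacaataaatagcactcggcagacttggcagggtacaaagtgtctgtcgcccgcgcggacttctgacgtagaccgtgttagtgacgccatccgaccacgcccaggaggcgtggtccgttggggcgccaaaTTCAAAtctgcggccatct
Cdk1: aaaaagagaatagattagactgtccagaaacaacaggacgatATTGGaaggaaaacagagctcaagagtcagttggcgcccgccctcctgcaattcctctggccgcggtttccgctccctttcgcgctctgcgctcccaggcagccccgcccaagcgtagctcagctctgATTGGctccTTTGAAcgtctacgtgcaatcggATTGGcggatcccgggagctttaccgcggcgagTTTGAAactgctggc
Ect2: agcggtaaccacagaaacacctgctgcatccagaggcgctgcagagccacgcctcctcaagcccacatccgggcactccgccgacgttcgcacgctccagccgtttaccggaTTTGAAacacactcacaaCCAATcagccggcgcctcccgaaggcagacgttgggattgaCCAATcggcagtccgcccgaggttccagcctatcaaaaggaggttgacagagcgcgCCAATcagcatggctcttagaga
Counting back from the start, Ube2c has 6 CCAAT matches, the last at position -57, and 1 CHR match at -29. Cdk1 has 3 CCAAT matches and 2 CHR matches, the nearer at -15. Kif15 has 2 CHR matches and no CCAAT. The same letters occurred in genes that departed from the others in the data below: Bub3 had both motifs, and Cenpa had 2 CCAAT boxes and no CHR match. No match was found for Pttg1.

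The libraries held 13047772 to 26966644 estimated counts. Levels are given as CPM, counts scaled to 1 common library total after TMM scaling, which balances libraries of unlike composition. The mouse libraries and the cultured libraries were scaled separately, so levels are compared within each set. Ly6a, which encodes Sca1, was at 1696 to 1806 CPM in TuMon1 and 29.5 to 39.6 CPM in TuMon2, and at 1344 to 1628 CPM after MC38 supernatant against 11.2 to 11.9 CPM after LLC supernatant, as the labels have it. Transcripts of other tissues stood out in 5 libraries: the summed CPM of 7 fat cell genes was 7956, 7474 and 13260 in MC38 spleen monocyte replicates 1, 2 and 3 (at most 293.9 in any other mouse library), that of 10 fibroblast and endothelial genes was 3119 in MC38 supernatant replicate 3, and that of 10 epithelial genes was 97.7 in control replicate 2. Counts of called genes that use these 5 libraries are given with and without them, and values of single genes without them where stated.

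The 48 genes together were lowest in LLC tumor monocytes and highest, among the mouse libraries, in MC38 tumor macrophages. Their summed level was 307.5 to 338.4 CPM in LLC TuMon2, 504.4 to 575.0 in MC38 TuMon1, 663.7 to 885.7 in LLC macrophages and 2148 to 2484 in MC38 macrophages. Spleen monocytes stood between, at 561.3 to 684.4 CPM with LLC tumors and at 427.3, 447.3, 433.4 and 726.6 CPM with MC38 tumors. By mean level, LLC TuMon2 was the lowest of the 6 mouse groups for 43 of the 48 genes and MC38 macrophages the highest for 45. In culture the order of the tumor lines was the other way: 7620 to 9679 CPM in untreated cells, 2216 to 2317 after LLC supernatant and 1037 to 1217 after MC38 supernatant. The plot of summed levels shows each library.

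**Figure D1:**
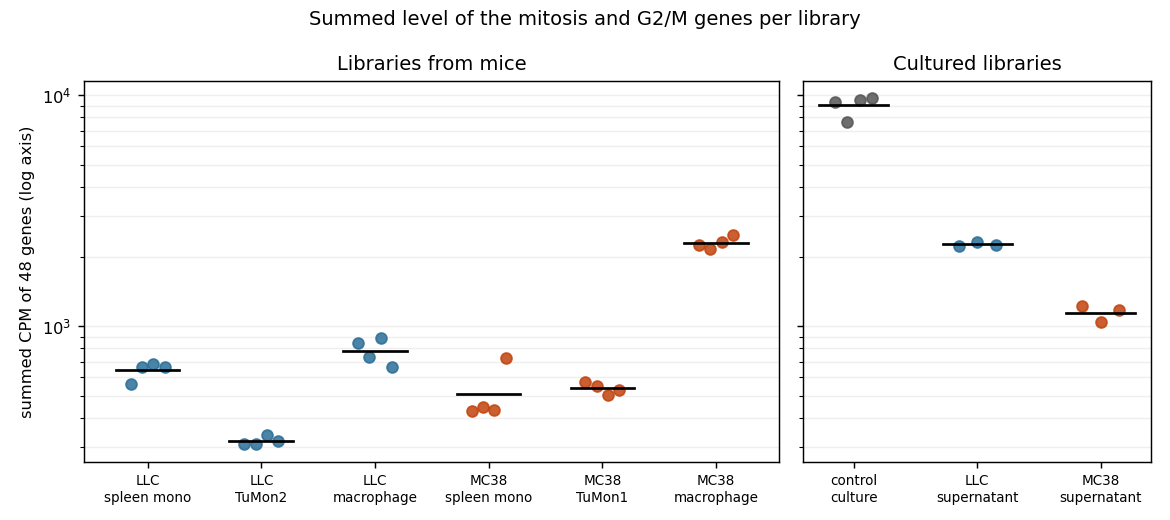
Summed CPM of the 48 genes in each library, on a log axis; each point is 1 library, black bars are group means, and mouse and cultured libraries were scaled separately. MC38 macrophages (2148 to 2484 CPM) and untreated cultures (7620 to 9679 CPM) stand highest in their panels, and the fourth MC38 spleen library (726.6 CPM) stands above the other 3 (427.3 to 447.3 CPM).

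The first question was whether monocytes of the 2 tumors differ in these genes. Of the 48, 43 were higher in MC38 TuMon1 than in LLC TuMon2 and 1, Cenpa, was lower, by edgeR's quasi-likelihood test with a Benjamini-Hochberg adjusted p under 0.05. The same rule called 48.9% of all 13200 tested genes, 26.8% higher and 22.1% lower. The median log2 difference of the 48 genes was 1.44, against 0.06 over all genes. All libraries of TuMon1 lay above all of TuMon2 in 40 genes and below in 2 (Cenpa and Smc4), where 27.9% and 23.3% of all genes did so. The differences ran from -0.53 to 3.37.

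The cyclins and CDK1, the engine of mitotic entry, were all 4 called higher. Cyclin B1 (Ccnb1) was at 0.880, 0.672, 1.21 and 0.515 CPM in TuMon2 and at 4.29, 3.90, 2.80 and 4.54 CPM in TuMon1. Cyclin A2 (Ccna2), which acts from S phase to early mitosis, was at 1.41, 1.29, 1.59 and 1.77 CPM in TuMon2 and at 7.93, 7.44, 4.83 and 6.65 CPM in TuMon1. Cdk1, whose promoter is printed above, was at 1.23, 1.81, 3.03 and 1.83 CPM in TuMon2 and at 8.87, 7.54, 6.69 and 7.81 CPM in TuMon1. In all 3 genes every TuMon1 library lay above every TuMon2 library. The log2 differences were 2.28 ± 0.33, adjusted p = 3.23e-06 for Ccnb1, 2.14 ± 0.32, adjusted p = 1.32e-05 for Ccna2 and 1.97 ± 0.33, adjusted p = 5.11e-05 for Cdk1. Ccnb2 differed by less (0.82 ± 0.32, adjusted p = 0.0371), its groups overlapped, and it was not called in 6 of 16 alternative settings.

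The 5 mitotic kinases and Foxm1, a transcription factor of late cell cycle genes, were all called higher. Aurka, the kinase of the spindle poles, was at 3.52, 2.79, 2.88 and 3.60 CPM in TuMon2 and at 8.52, 7.23, 7.90 and 8.82 CPM in TuMon1 (log2 difference 1.35 ± 0.21, adjusted p = 1.06e-05). The groups did not overlap. Ttk, the kinase that starts checkpoint signalling, had the largest difference of the class (3.06 ± 0.49, adjusted p = 1.62e-05) at a low level. Its TuMon2 libraries held 3, 2, 4 and 1 estimated counts and its TuMon1 libraries 30, 37, 18 and 27. Foxm1 was at 1.94, 1.09, 2.27 and 1.26 CPM in TuMon2 and at 5.52, 4.21, 3.56 and 3.58 CPM in TuMon1 (1.40 ± 0.26, adjusted p = 8.43e-05). Plk1 (1.29), Aurkb (0.95) and Bub1 (0.69) rose by less, and Bub1 was not called in 10 of 16 alternative settings. In TuMon2 the counts limit precision: 10 of the 48 genes had a library with fewer than 10 estimated counts there, and none in TuMon1.

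Of the spindle checkpoint, Bub1b and Mad2l1 were higher in TuMon1 and Bub3 was not called. Bub1b, which encodes the checkpoint protein BubR1, was at 9.24, 8.33, 9.69 and 6.07 CPM in TuMon2 and at 18.8, 14.5, 18.8 and 18.2 CPM in TuMon1 (1.08 ± 0.17, adjusted p = 8.29e-06). Mad2l1, which restrains Cdc20 until all chromosomes are attached, was at 2.29, 1.81, 2.42 and 2.69 CPM in TuMon2 and at 6.45, 6.09, 6.86 and 5.54 CPM in TuMon1 (1.44 ± 0.24, adjusted p = 2.3e-05). Neither gene overlapped between the groups. Bub3, the partner that brings Bub1 and BubR1 to kinetochores, was at 59.3, 63.2, 66.5 and 64.8 CPM in TuMon2 and at 65.8, 72.98, 65.9 and 66.1 CPM in TuMon1, where the groups overlapped (0.09 ± 0.07, adjusted p = 0.274).

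All 3 genes around the anaphase-promoting complex were higher. Cdc20, its mitotic activator, was at 1.23, 0.466, 1.29 and 0.629 CPM in TuMon2 and at 4.53, 3.59, 3.84 and 4.64 CPM in TuMon1 (2.26 ± 0.35, adjusted p = 9.6e-06). Ube2c, its ubiquitin-conjugating enzyme, was at 1.41, 1.24, 1.89 and 1.20 CPM in TuMon2 and at 6.70, 6.76, 5.65 and 7.16 CPM in TuMon1 (2.21 ± 0.28, adjusted p = 7.43e-07). In both genes the lowest TuMon1 library stood well above the highest TuMon2 library. Pttg1, securin, which blocks the enzyme that cuts sister chromatids apart, was at 27.9, 25.4, 29.8 and 25.4 CPM in TuMon2 and at 59.5, 72.7, 60.3 and 64.2 CPM in TuMon1 (1.25 ± 0.11, adjusted p = 9.87e-10). Its groups did not overlap.

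At the centromere and kinetochore 5 of 6 genes were higher and 1 lower. Cenpe, a kinesin that carries chromosomes to the spindle equator, was at 2.29, 1.76, 2.42 and 1.89 CPM in TuMon2 and at 11.8, 12.8, 11.1 and 10.9 CPM in TuMon1 (2.50 ± 0.25, adjusted p = 3.82e-08). Ndc80, a subunit of the complex that grips microtubules, was at 0.968, 0.621, 1.14 and 0.629 CPM in TuMon2 and at 5.32, 4.26, 3.67 and 5.44 CPM in TuMon1 (2.51 ± 0.28, adjusted p = 6.99e-08). Spc25, its partner in that complex, was at 0.704, 0.569, 0.530 and 0.629 CPM in TuMon2 and at 2.36, 2.13, 2.19 and 2.42 CPM in TuMon1 (1.90 ± 0.34, adjusted p = 6.32e-05). The groups lay apart in all 3 genes. The partner Nuf2 rose by 1.8 and Cenpf, a protein of the outer kinetochore, by 1.32. Cenpa, the histone H3 variant that marks centromeres, went the other way, from 34.6, 33.4, 40.1 and 42.8 CPM in TuMon2 to 27.5, 22.6, 26.2 and 27.98 CPM in TuMon1 (-0.53 ± 0.14, adjusted p = 0.00277). Every TuMon1 library held less Cenpa than every TuMon2 library.

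Of the chromosomal passenger complex, which corrects wrong attachments, survivin (Birc5) and borealin (Cdca8) were higher and the scaffold Incenp was not called. Cdca8 was at 0.968, 2.07, 1.29 and 1.09 CPM in TuMon2 and at 5.22, 5.57, 4.83 and 5.39 CPM in TuMon1 (1.92 ± 0.31, adjusted p = 2.06e-05). Birc5 was at 2.38, 1.14, 1.59 and 1.49 CPM in TuMon2 and at 6.45, 4.11, 4.55 and 4.94 CPM in TuMon1 (1.64 ± 0.32, adjusted p = 0.000181). Neither gene overlapped between the groups. Incenp stood at a higher level in both groups, 29.1, 25.9, 28.8 and 29.5 CPM in TuMon2 and 37.5, 33.2, 30.1 and 30.6 CPM in TuMon1, with no overlap but a small difference (0.21 ± 0.10, adjusted p = 0.0766). Aurkb, the kinase of the same complex, rose by 0.95 as given above.

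The 8 kinesin motors were all called higher, with differences from 0.41 to 3.37. Kif4 (chrX:100626065-100727271 on GRCm38), which works on chromosome arms and at the central spindle, had the largest difference of the 48 genes: 0.616, 0.621, 0.227 and 0.515 CPM in TuMon2 and 6.26, 5.72, 4.77 and 4.29 CPM in TuMon1 (3.37 ± 0.32, adjusted p = 4.68e-09). Kif15, a motor of the bipolar spindle, was at 0.440, 0.828, 0.530 and 0.687 CPM in TuMon2 and at 2.81, 2.91, 2.80 and 1.86 CPM in TuMon1 (2.0 ± 0.32, adjusted p = 1.65e-05). Kif20b was at 0.968, 1.34, 0.908 and 0.858 CPM in TuMon2 and at 3.84, 3.85, 3.73 and 3.78 CPM in TuMon1 (1.87 ± 0.28, adjusted p = 4.96e-06). The TuMon1 values of Kif20b spanned a narrow range, and no library of either gene crossed into the other group. The motors Kif2c (2.31), Kif20a (1.60), Kif11 (1.56) and Kif22 (1.46) also rose. Kif23 had the smallest difference of the class (0.41 ± 0.15, adjusted p = 0.0282), its groups overlapped, and it was not called in 7 of 16 alternative settings.

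Of 9 genes of spindle assembly and cytokinesis 8 were higher, and Hmmr was not called (0.67 ± 0.30, adjusted p = 0.0651). Anln, the anillin that anchors the cleavage furrow, was at 0.880, 2.02, 1.21 and 1.83 CPM in TuMon2 and at 6.90, 6.29, 5.37 and 6.25 CPM in TuMon1 (2.01 ± 0.17, adjusted p = 7.17e-10), the smallest adjusted p of the 48 genes. Tpx2, which activates the Aurora A kinase at the spindle, was at 1.94, 2.38, 3.10 and 2.58 CPM in TuMon2 and at 25.1, 25.9, 21.7 and 20.97 CPM in TuMon1 (3.22 ± 0.30, adjusted p = 1.98e-08). The Tpx2 groups were the farthest apart of the class. Racgap1, a subunit of centralspindlin, was at 4.84, 4.14, 5.15 and 4.86 CPM in TuMon2 and at 8.52, 10.04, 8.34 and 8.32 CPM in TuMon1 (0.90 ± 0.12, adjusted p = 9.79e-07). The groups of Racgap1 did not overlap. The remaining 5 called genes rose by 0.68 (Prc1), 0.93 (Ect2), 1.07 (Aspm), 1.26 (Cdca3) and 1.44 (Nusap1). Of these, Prc1 was not called in 5, Ect2 in 3 and Aspm in 4 of 16 alternative settings.

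Of 6 genes of chromosome structure 5 were higher, and Smc4 was not called. Top2a, the topoisomerase that untangles sister DNA, was at 8.71, 5.69, 7.34 and 6.75 CPM in TuMon2 and at 39.3, 35.2, 30.7 and 35.5 CPM in TuMon1 (2.32 ± 0.29, adjusted p = 2.05e-06). Smc2, the core condensin subunit, was at 7.31, 8.74, 7.80 and 7.38 CPM in TuMon2 and at 18.9, 19.97, 18.9 and 19.9 CPM in TuMon1 (1.31 ± 0.16, adjusted p = 1.98e-07). Mki67, a coat protein of mitotic chromosomes and a common marker of dividing cells, was at 10.04, 11.4, 13.5 and 10.2 CPM in TuMon2 and at 31.2, 21.8, 25.9 and 23.7 CPM in TuMon1 (1.19 ± 0.33, adjusted p = 0.00546). None of the 3 genes overlapped between the groups. Smc4, the partner of Smc2 in condensin, was at 56.6, 57.7, 53.4 and 58.4 CPM in TuMon2 and at 50.05, 43.3, 41.8 and 47.6 CPM in TuMon1 (-0.31 ± 0.14, adjusted p = 0.0733). Every TuMon1 library held less Smc4 than every TuMon2 library, though the difference did not pass the test. Ncapg, a further condensin subunit, held 1, 16, 6 and 12 estimated counts in TuMon2 and 63, 66, 39 and 33 in TuMon1 (2.21 ± 0.41, adjusted p = 8.86e-05). The condensin subunit Ncapd2 overlapped between the groups (0.43 ± 0.16, adjusted p = 0.0271) and was not called in 7 of 16 alternative settings.

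Markers of other cells also differed between these groups, and their part in the results was not tested. Of 14 T and NK cell genes in the table, 11 could be tested, 6 were higher and 1 lower in TuMon1, with a summed level of 13.4 to 15.9 CPM against 4.66 to 5.15 CPM. Cd3e, Cd3g and Cd8b1 were at 0 in every TuMon2 library. Of 9 dendritic cell genes 5 were higher (404.9 to 457.0 against 124.0 to 139.3 CPM), with Siglech at 0 in TuMon2. Of 10 epithelial genes 4 were tested and all 4 were lower (6.05 to 8.33 against 42.1 to 67.2 CPM), with Krt20 and Esrp1 at 0 in both groups. Of 10 macrophage genes 8 were higher and 1 lower (10160 to 11220 against 5477 to 5734 CPM), and of 10 classical monocyte genes 1 was higher and 7 lower. The counts higher and lower were 2 and 4 of 10 neutrophil genes, 2 and 3 of 10 progenitor genes, 2 and 1 of 10 fibroblast and endothelial genes, and 2 and 0 of 4 tested B cell genes. None of 7 fat cell genes and none of 2 tested red cell genes was called.

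**Figure D2:**
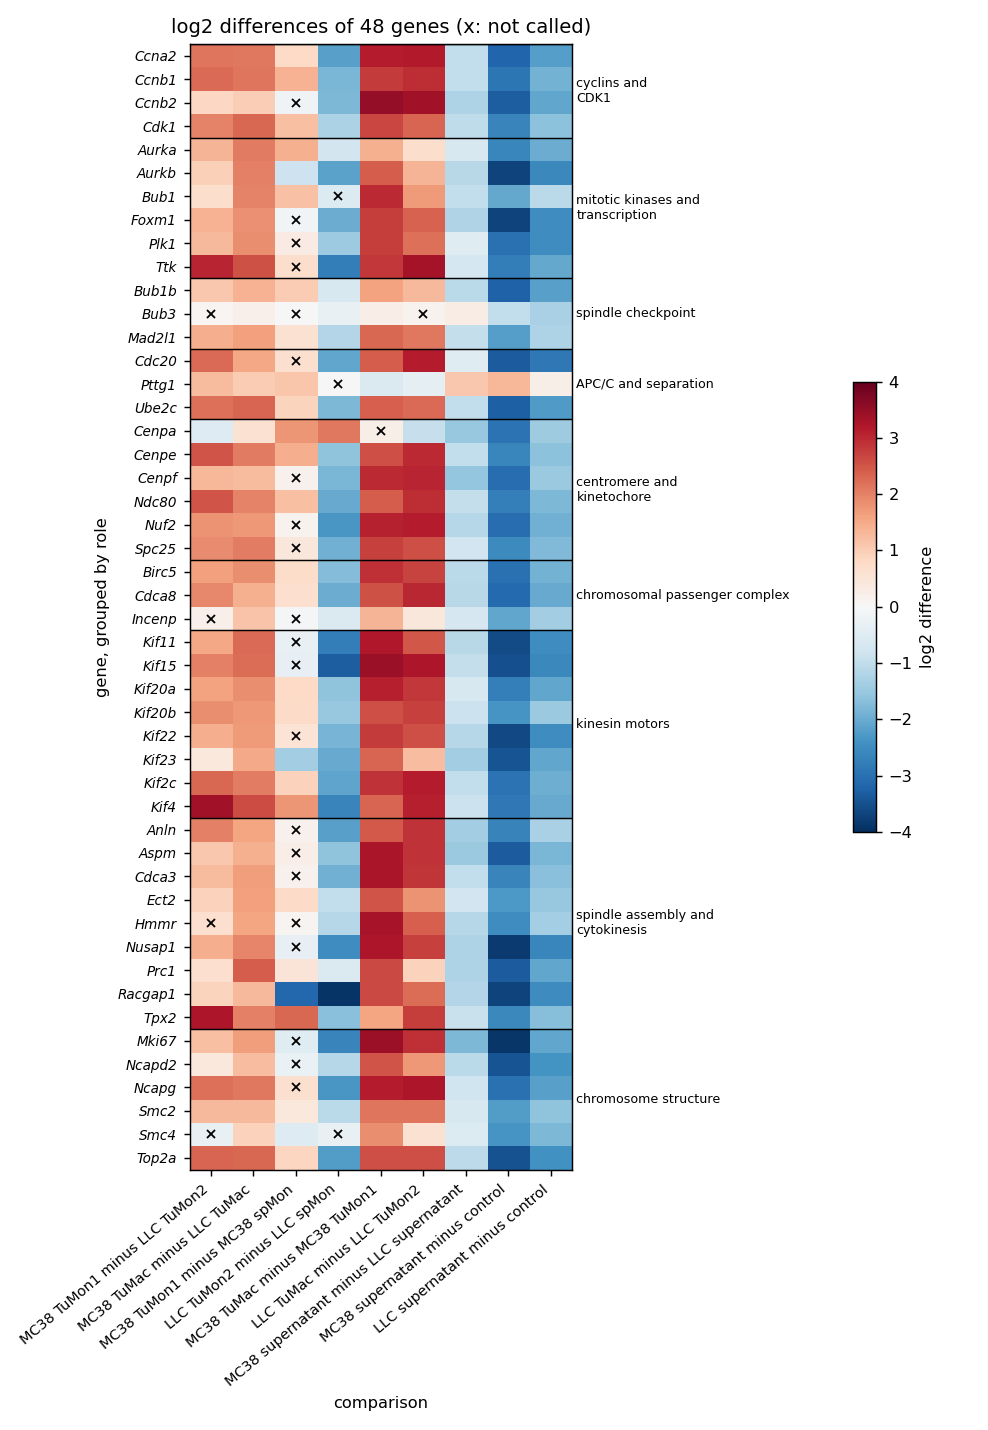
Log2 differences of the 48 genes (rows, grouped by role) in 9 comparisons (columns), colored from blue (lower in the group named first) to red (higher), with the scale ending at 4 in each direction; a cross marks a gene that was not called. Both columns of MC38 against LLC tumor cells and both of macrophages against monocytes are red for most genes, the supernatant columns are blue, and Pttg1, Bub3 and Cenpa break the pattern of their classes.

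Tumor monocytes were next set against spleen monocytes of mice with the same tumor. With LLC tumors, 44 of the 48 genes were lower in the tumor and 1, Cenpa, was higher, with a median log2 difference of -1.81 (all genes: 62.6% called, 34% lower and 28.6% higher; median -0.05). Kif15 was at 4.78, 5.20, 6.80 and 8.88 CPM in LLC spleen monocytes, against the TuMon2 values of 0.440, 0.828, 0.530 and 0.687 CPM (-3.30 ± 0.31, adjusted p = 1.45e-09). Mki67 was at 54.3, 73.7, 80.3 and 69.9 CPM in LLC spleen monocytes, against 10.04, 11.4, 13.5 and 10.2 CPM in TuMon2 (-2.63 ± 0.33, adjusted p = 9.1e-07). The groups lay far apart in both genes, and 42 genes had every TuMon2 library below every spleen library and 1 above (32.2% and 28.1% of all genes). Bub1, Smc4 and Pttg1 were not called, and Pttg1 differed by 0.00 ± 0.11, adjusted p = 0.999. Leaving out the 5 libraries above gave 47 called genes, 46 of them lower (63.0% of all genes called). Marker genes of other cells moved between the same groups. Of 10 progenitor genes 8 were lower in TuMon2 (17.1 to 25.6 CPM summed, against 147 to 200.9 CPM in LLC spleen), as were 9 of 10 neutrophil genes (241.1 to 314.4 against 3361 to 5231 CPM). Of 11 tested T and NK cell genes 10 were lower (4.66 to 5.15 against 48.6 to 73.4 CPM), and 9 of 10 macrophage genes were higher (5477 to 5734 against 1911 to 2136 CPM). Their part in the result was not tested.

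With MC38 tumors the outcome rested on which spleen libraries were used. Over all 4, 23 genes were higher in TuMon1 and 4 lower (Aurkb, Kif23, Racgap1 and Smc4), with a median of 0.58, where 70.1% of all genes were called, 33.5% higher and 36.6% lower. The libraries did not overlap in 11 genes upward and 4 downward, where 30.8% and 28.3% of all genes did so. Aurkb was at 8.71, 8.32, 8.11 and 10.8 CPM in MC38 spleen replicates 1 to 4 and at 5.32, 5.62, 5.16 and 4.03 CPM in TuMon1 (-0.83 ± 0.17, adjusted p = 0.000164). Smc4 was at 62.2, 58.5, 56.5 and 84.4 CPM in the spleen and at 50.05, 43.3, 41.8 and 47.6 CPM in TuMon1 (-0.51 ± 0.14, adjusted p = 0.00225). No TuMon1 library of these 2 genes reached the spleen libraries. Both were still called lower without the 5 libraries, with log2 differences of -1.11 for Aurkb (adjusted p = 0.000665) and -0.89 for Smc4 (adjusted p = 0.000512). Replicate 4 lay above replicates 1, 2 and 3 in all 48 genes, by a median ratio of 2.31, where 49.1% of all tested genes did so. Replicates 1, 2 and 3 all lay below the 4 LLC spleen libraries in 38 genes (28.7% of all genes). Replicate 4 lay within the LLC range in 31 of the 48, against 56.0% of all genes. Replicates 1, 2 and 3 are the libraries with fat cell transcripts, and they also held less of the neutrophil genes (1083 to 1285 CPM summed over 10 genes, against 3853 in replicate 4 and 3361 to 5231 in LLC spleen). Without the 5 libraries, which leaves replicate 4 alone with its spread taken from the other groups, 6 genes were higher and 12 lower, with a median of -0.30 (53.1% of all genes called). Here too 8 of 10 progenitor genes were lower in the tumor (11.7 to 14.3 against 84.4 to 121.8 CPM) and all 10 macrophage genes higher, and their part was not tested. Top2a shows the split: 14.1, 13.9, 12.8 and 37.5 CPM in MC38 spleen replicates 1 to 4, against 39.3, 35.2, 30.7 and 35.5 CPM in TuMon1 and 24.1, 31.6, 38.04 and 37.4 CPM in LLC spleen.

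The comparison of the spleens themselves rested on the same libraries. Over all libraries 22 of the 48 genes were lower in MC38 than in LLC spleen monocytes and none was higher (28.4% of all genes called, 14.0% lower), with a median of -0.62. Without the 5 libraries, which leaves 1 MC38 library (replicate 4), 0 of 48 were called by edgeR and the median was 0.21. Only 0.2% of all genes were called in that setting, so this count was near the background. Leaving out 1 library gave 43 without MC38 replicate 4 (47.3% of all genes called), 8 without MC38 replicate 1 (23.1%) or replicate 2 (24.7%) and 4 without MC38 replicate 3 (19.0%). It gave 13 without LLC replicate 2 (27.7%) and 10 without LLC replicate 3 (27.3%). With only these groups in the fit 0 of the 48 were called, where 7.9% of all genes were, and the median was -0.52. The part of the foreign transcripts in this difference was not tested.

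The tumor-minus-spleen change was nonetheless different for the 2 tumors. The interaction term called 46 of 48 genes, all more positive for MC38, with a median of 2.16 (all genes: 42.9% called, 23.8% more positive and 19.1% more negative). The smallest adjusted p values belonged to Kif4 (4.42 ± 0.42, adjusted p = 1.52e-08), Anln (2.32 ± 0.22, adjusted p = 1.84e-08), Tpx2 (3.98 ± 0.41, adjusted p = 1.89e-07), Ndc80 (3.21 ± 0.37, adjusted p = 3.31e-07) and Cenpe (3.06 ± 0.35, adjusted p = 3.85e-07). Cenpa (-0.32 ± 0.21, adjusted p = 0.215) and Smc4 (-0.21 ± 0.20, adjusted p = 0.406) were not called. Without the 5 libraries 36 genes were called, 35 of them more positive for MC38, and the median was 1.34, while the share of all genes called fell to 26.1%. The size of this difference thus depended on those libraries. In that setting the log2 differences were 3.75 for Kif4, 2.04 for Anln, 2.92 for Tpx2, 2.57 for Ndc80 and 2.24 for Cenpe, with a largest adjusted p of 6.16e-05. Cenpa was then called more negative for MC38 (-0.87, adjusted p = 0.0029).

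Racgap1 (chr15:99620496-99651656 on GRCm38) and Kif23 (chr9:61917277-61946810) together form centralspindlin, the complex that gathers the central spindle. Both were called lower in tumor than in spleen monocytes with either tumor, and Racgap1 had a spleen level unlike the others. Racgap1 was at 72.7, 75.5, 65.99 and 74.02 CPM in LLC spleen monocytes and at 69.05, 77.7, 67.5 and 95.03 CPM in MC38 spleen monocytes, above every tumor library of either tumor. Its tumor monocyte values were 4.84, 4.14, 5.15 and 4.86 CPM (LLC) and 8.52, 10.04, 8.34 and 8.32 CPM (MC38). The log2 differences from spleen were -3.93 ± 0.12, adjusted p = 1.21e-18 for LLC and -3.13 ± 0.11, adjusted p = 9.49e-18 for MC38. Kif23 was at 22.01 to 24.1 CPM in LLC spleen and 17.2 to 25.4 CPM in MC38 spleen, against 4.67 to 6.35 CPM in TuMon2 and 6.31 to 8.72 CPM in TuMon1 (-2.02 ± 0.15, adjusted p = 1.8e-11 for LLC and -1.40 ± 0.14, adjusted p = 4.69e-09 for MC38). Its LLC difference was near the median of the kinesin motors (-2.06). The tumor monocyte and spleen groups did not overlap in either gene, replicate 4 of the MC38 spleen included. Ect2, the exchange factor that centralspindlin recruits, was at 1.87 to 3.13 CPM in LLC spleen and 0.629 to 2.12 CPM in TuMon2 (-0.97 ± 0.30, adjusted p = 0.00735).

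Cenpa (chr5:30666877-30674837) had the opposite distribution. It was at 10.3, 8.43, 8.82 and 7.48 CPM in LLC spleen and 7.71, 6.44, 5.55 and 10.99 CPM in MC38 spleen, below every tumor library. The log2 differences of tumor from spleen monocytes were 2.11 ± 0.15, adjusted p = 7.34e-12 for LLC and 1.78 ± 0.15, adjusted p = 1.15e-10 for MC38. Cenpa was the only one of the 48 genes called higher in LLC tumor monocytes than in LLC spleen monocytes. In LLC macrophages it was at 21.03, 17.6, 21 and 20.5 CPM, below the TuMon2 libraries (-0.91 ± 0.14, adjusted p = 6.81e-06), and in MC38 macrophages at 33.3, 27.03, 32.2 and 29.1 CPM, not called against TuMon1 (0.22 ± 0.14, adjusted p = 0.191).

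In both tumors the macrophages held more of these transcripts than the monocytes. In MC38 tumors 46 of 48 genes were higher in macrophages than in TuMon1 and Pttg1 was lower (median 2.64; 52.7% of all genes called, 24.8% higher). In LLC tumors 45 were higher in macrophages than in TuMon2, and Pttg1 and Cenpa were lower (median 2.59; 55.5% of all genes called, 29.2% higher and 26.3% lower). Mki67 was at 264, 298, 244 and 296 CPM in MC38 macrophages, against 31.2, 21.8, 25.9 and 23.7 CPM in TuMon1 (3.42 ± 0.32, adjusted p = 3.71e-08). In LLC macrophages Mki67 was at 92.6, 88.6, 104 and 58.98 CPM, against 10.04, 11.4, 13.5 and 10.2 CPM in TuMon2 (2.93 ± 0.33, adjusted p = 4.14e-07). In this gene no macrophage library reached down to the monocytes of its tumor.

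Among the classes, the cyclins and CDK1 rose from MC38 monocytes to macrophages by a median of 2.97, the kinesins by 2.86 and the mitotic kinases with Foxm1 by 2.77. The spindle checkpoint rose by a median of 1.62, with Bub3 at 0.25. Ccnb2 had the largest rise of the 48 genes, from 4.73, 3.07, 2.63 and 2.47 CPM in TuMon1 to 36.1, 32.4, 38.6 and 40.7 CPM in MC38 macrophages (3.51 ± 0.28, adjusted p = 9.29e-10). Securin (Pttg1) fell instead, from 59.5, 72.7, 60.3 and 64.2 CPM in TuMon1 to 45.1, 47.2, 44.4 and 36.1 CPM in MC38 macrophages (-0.57 ± 0.10, adjusted p = 5.83e-05) and from 27.9, 25.4, 29.8 and 25.4 CPM in TuMon2 to 23.3, 18.1, 19.5 and 23.9 CPM in LLC macrophages (-0.35 ± 0.11, adjusted p = 0.00802).

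Between the 2 kinds of macrophage, all 48 genes were higher in MC38, with a median log2 difference of 1.78 (45.3% of all genes called, 22.4% higher). The differences ran from 0.19 for Bub3 to 2.62 for Kif4, and 47 genes did not overlap, all higher in MC38, where 22.4% of all genes lay apart upward and 21.4% downward. Kif4 was at 4.25, 3.63, 5.70 and 3.88 CPM in LLC macrophages and at 27.1, 26.8, 25.4 and 27.3 CPM in MC38 macrophages (2.62 ± 0.25, adjusted p = 3.7e-09). Prc1, which bundles the microtubules of the central spindle, was at 9.93, 6.39, 11.1 and 6.27 CPM in LLC macrophages and at 43.4, 40.9, 46.4 and 49.2 CPM in MC38 macrophages (2.42 ± 0.22, adjusted p = 3.32e-09). Racgap1, given above for the spleen, was at 24.7, 21.5, 23.9 and 18.9 CPM in LLC macrophages and at 57.6, 52.6, 53.2 and 57.3 CPM in MC38 macrophages (1.31 ± 0.10, adjusted p = 7.02e-11). Bub3 overlapped between the groups and was not called in 3 of 16 alternative settings.

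The step from monocyte to macrophage was called different between the tumors in few of the genes. The interaction term called 8 genes with a larger step in MC38 and 1 with a smaller one, 9 of 48. Of all genes 14.5% were called (6.25% larger and 8.27% smaller). The share in both directions together was thus near the background, while the called genes, unlike all genes, lay mostly on the side of a larger step in MC38. The larger steps with the smallest adjusted p belonged to Incenp (0.92 ± 0.14, adjusted p = 5.68e-05), Smc4 (1.24 ± 0.20, adjusted p = 0.000127), Cenpa (1.13 ± 0.20, adjusted p = 0.000292), Kif23 (1.12 ± 0.21, adjusted p = 0.000504) and Prc1 (1.73 ± 0.32, adjusted p = 0.00055). The smaller step was that of Tpx2 (-1.19 ± 0.39, adjusted p = 0.0439), which already stood at 20.97 to 25.9 CPM in TuMon1. Smc4 reached 139.5, 131, 156 and 232 CPM in MC38 macrophages, where replicate 4 stood highest.

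Marker genes of macrophages, epithelium and other cells differed between the sorted groups. The 10 macrophage genes summed to 14310 to 15060 CPM in MC38 macrophages and 9277 to 10650 CPM in LLC macrophages, against 10160 to 11220 CPM in TuMon1 and 5477 to 5734 CPM in TuMon2. Epithelial genes summed to 6.09 to 8.32 CPM in MC38 macrophages and 92.4 to 144.5 CPM in LLC macrophages, with all 4 tested genes of the 10 lower in MC38. Epcam, Krt19, Cldn4, Krt20 and Esrp1 were at 0 in every LLC macrophage library. The part of these differences in the results was not tested.

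In culture the 48 genes were far lower after either supernatant than in untreated bone marrow monocytes. After LLC supernatant 47 were lower and Pttg1 was higher, with a median of -1.97 (68.4% of all genes called, 36.1% lower and 32.3% higher). After MC38 supernatant 47 were lower and Pttg1 was higher, with a median of -2.96 (67.9% of all genes called, 32.5% lower). These comparisons share the control libraries. Genes of myeloid progenitors moved with them: 10 genes such as Elane and Mpo summed to 1405 to 1758 CPM in the controls, 15.3 to 16.9 CPM after LLC supernatant and 43.3 to 46.7 CPM after MC38 supernatant. All 10 were lower after LLC supernatant, 9 were lower and 1 higher after MC38 supernatant, and none was at 0 in a whole group. All 10 macrophage genes were higher after each supernatant (10020 to 10180 CPM summed after LLC and 8736 to 10010 CPM after MC38 supernatant, against 713.2 to 870.2 CPM in the controls). Of 10 neutrophil genes 8 were lower and 1 higher after LLC supernatant, and 6 lower and 2 higher after MC38 supernatant. The part of these markers in the result was not tested. All 48 genes were also called against control for each supernatant when the 5 libraries were left out (80.3% of all genes for LLC and 77.1% for MC38).

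Between the supernatants, the direction was opposite to that in the tumors. Of the 48 genes 46 were lower after MC38 than after LLC supernatant and 2, Pttg1 and Bub3, were higher, with a median of -0.99 (all genes: 40.1% called, 18.5% lower and 21.6% higher; median 0.05). The libraries did not overlap in 45 of the lower genes and in both higher ones, where 27.7% and 32.5% of all genes did so. Differences of the lower genes ran from -0.48 for Cdc20 to -1.81 for Mki67. Cdc20 was not called in 7 of 14 alternative settings and Smc4 in 8. Markers of other cells differed between the supernatants too: 9 of 10 neutrophil genes were higher after MC38 supernatant (median log2 difference 3.34), as were 6 of 10 progenitor genes (1.41). The counts higher and lower were 6 and 1 of 10 classical monocyte genes, 2 and 3 of 10 macrophage genes, 4 and 0 of 7 tested dendritic cell genes and 4 and 0 of 7 tested fibroblast and endothelial genes. Their part in the result was not tested.

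By role, the cyclins and CDK1 were all lower, by -0.97 to -1.22. Ccnb2 was at 169, 128, 155 and 162 CPM in the controls, 32.96, 36.9 and 38.1 CPM after LLC supernatant and 15.5, 15.2 and 15.6 CPM after MC38 supernatant (-1.22 ± 0.10, adjusted p = 1.18e-05 between the supernatants). Ccna2 was at 256, 187, 234 and 237 CPM in the controls, 51.8, 48.9 and 49.4 CPM after LLC supernatant and 27.5, 22.9 and 26.4 CPM after MC38 supernatant (-0.97 ± 0.11, adjusted p = 8.96e-05). Ccnb1 was at 148, 114, 130.2 and 143 CPM in the controls, 36.3, 36.98 and 34.3 CPM after LLC supernatant and 19.4, 15.1 and 19.7 CPM after MC38 supernatant (-0.99 ± 0.12, adjusted p = 0.000134). In each gene the 3 groups formed separate steps. Among the kinases and Foxm1, Foxm1 was at 219, 176, 208 and 207 CPM in the controls, 37.98, 35.6 and 34.5 CPM after LLC supernatant and 14.3, 15.6 and 17.1 CPM after MC38 supernatant (-1.20 ± 0.10, adjusted p = 7.59e-06). Aurkb was at 175, 135, 164 and 173 CPM in the controls, 26.99, 27.4 and 25.9 CPM after LLC supernatant and 13.7, 11.4 and 12.1 CPM after MC38 supernatant (-1.11 ± 0.11, adjusted p = 2.62e-05). Bub1, the checkpoint kinase, was at 58.4, 45.7, 65.99 and 73.5 CPM in the controls, 28.7, 30.7 and 26.6 CPM after LLC supernatant and 15.9, 13.98 and 13.9 CPM after MC38 supernatant (-0.98 ± 0.15, adjusted p = 0.000642). Again no supernatant library crossed into the next group. Plk1, the polo-like kinase of mitotic entry and exit, had the smallest difference of the class (-0.49 ± 0.10, adjusted p = 0.00283).

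Of the checkpoint genes, Bub1b was at 244, 206, 243 and 244 CPM in the controls, 52.6, 55.4 and 49.6 CPM after LLC supernatant and 23.04, 24.2 and 26.9 CPM after MC38 supernatant (-1.09 ± 0.09, adjusted p = 8.32e-06). Mad2l1 was at 82.1, 65.7, 71.7 and 77.4 CPM in the controls, 32.1, 31.7 and 30.8 CPM after LLC supernatant and 17.2, 14.02 and 17.5 CPM after MC38 supernatant (-0.95 ± 0.10, adjusted p = 5.96e-05). Bub3 was at 168, 149.8, 172 and 157 CPM in the controls, 66.8, 60.6 and 67.7 CPM after LLC supernatant and 76.99, 78.2 and 86.5 CPM after MC38 supernatant (0.31 ± 0.07, adjusted p = 0.00831). Bub3 thus fell from control with both supernatants, and fell less with MC38 supernatant. Around the anaphase-promoting complex, Ube2c was at 163, 98.6, 119 and 131 CPM in the controls, 25.5, 27 and 26.99 CPM after LLC supernatant and 13.5, 12.3 and 13.9 CPM after MC38 supernatant (-1.0 ± 0.15, adjusted p = 0.000597). Cdc20 was at 110.1, 80.2, 99.9 and 95.04 CPM in the controls, 11.8, 13.6 and 14.3 CPM after LLC supernatant and 8.55, 7.92 and 11.96 CPM after MC38 supernatant (-0.48 ± 0.16, adjusted p = 0.0403), and its supernatant groups overlapped.

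Of the kinetochore genes all 6 were lower after MC38 supernatant. Nuf2 was at 94.2, 73.4, 87.1 and 94.8 CPM in the controls, 22.1, 24.6 and 22.04 CPM after LLC supernatant and 11.1, 9.77 and 10.6 CPM after MC38 supernatant (-1.13 ± 0.10, adjusted p = 2.16e-05). Cenpf was at 126, 110.2, 143 and 146 CPM in the controls, 44.9, 47.9 and 47.5 CPM after LLC supernatant and 18.7, 12.4 and 16.7 CPM after MC38 supernatant (-1.55 ± 0.15, adjusted p = 2.62e-05). Both formed separate steps. Cenpa was at 119, 79.3, 99.5 and 103 CPM in the controls, 37.5, 37.2 and 37.6 CPM after LLC supernatant and 15.03, 12.6 and 11.4 CPM after MC38 supernatant (-1.53 ± 0.14, adjusted p = 2.31e-05). In this gene alone of the 48 the MC38 side was called lower both in the tumor monocytes and in culture. Of the passenger complex, Cdca8 was at 140.3, 99.4, 123 and 125 CPM in the controls, 30.8, 29.4 and 30.5 CPM after LLC supernatant and 14.4, 14.2 and 13.5 CPM after MC38 supernatant (-1.10 ± 0.11, adjusted p = 3.19e-05). Birc5 was at 136, 104, 137 and 128 CPM in the controls, 36.6, 31.6 and 33.9 CPM after LLC supernatant and 16.5, 14.9 and 16.9 CPM after MC38 supernatant (-1.08 ± 0.11, adjusted p = 3.85e-05). Incenp was at 306, 235, 288 and 286 CPM in the controls, 104, 112 and 104 CPM after LLC supernatant and 68.3, 66.6 and 64.6 CPM after MC38 supernatant (-0.68 ± 0.09, adjusted p = 0.000224). The supernatant groups did not overlap in the 3 genes of this complex.

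The kinesins were lower by 0.64 (Kif20a) to 1.38 (Kif23) on the log2 scale. Kif23 was at 193, 141, 192 and 198 CPM in the controls, 44.2, 42.5 and 41.8 CPM after LLC supernatant and 16.5, 15.7 and 17.3 CPM after MC38 supernatant (-1.38 ± 0.12, adjusted p = 1.3e-05). Its partner Racgap1 was at 378, 311, 358 and 335 CPM in the controls, 64.2, 58.3 and 58.1 CPM after LLC supernatant and 26.03, 25.6 and 28.8 CPM after MC38 supernatant (-1.17 ± 0.09, adjusted p = 4.3e-06). Both centralspindlin genes formed separate steps. Kif22, a motor that binds DNA, was at 145, 116, 147 and 146 CPM in the controls, 24.4, 25.7 and 24.1 CPM after LLC supernatant and 11.7, 10.3 and 11.7 CPM after MC38 supernatant (-1.14 ± 0.10, adjusted p = 1.36e-05). Kif2c, which takes microtubules apart at the centromere, was at 81.4, 67.7, 81.3 and 72.5 CPM in the controls, 19.7, 19.6 and 19.2 CPM after LLC supernatant and 9.05, 8.73 and 11.4 CPM after MC38 supernatant (-1.0 ± 0.11, adjusted p = 6.91e-05). The supernatant groups of both motors lay apart.

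Of spindle assembly and cytokinesis all 9 genes were lower after MC38 supernatant. Aspm, a spindle pole protein, was at 81.9, 80.9, 97.4 and 96.2 CPM in the controls, 23.2, 26.4 and 25.3 CPM after LLC supernatant and 10.1, 7.51 and 9.27 CPM after MC38 supernatant (-1.48 ± 0.12, adjusted p = 9.05e-06). Cdca3, a trigger of mitotic entry, was at 152, 121, 147 and 150.4 CPM in the controls, 44.5, 45.1 and 44.8 CPM after LLC supernatant and 23.5, 22.2 and 22.8 CPM after MC38 supernatant (-0.97 ± 0.08, adjusted p = 1.43e-05). Neither gene overlapped between the supernatants. Of chromosome structure all 6 genes were lower. Mki67 was at 1478, 1334, 1731 and 1681 CPM in the controls, 344, 386 and 383 CPM after LLC supernatant and 129, 89.7 and 98.3 CPM after MC38 supernatant (-1.81 ± 0.14, adjusted p = 7.45e-06). Top2a was at 880.2, 739, 935 and 985 CPM in the controls, 161, 170.3 and 165 CPM after LLC supernatant and 84.96, 71.6 and 81.5 CPM after MC38 supernatant (-1.06 ± 0.11, adjusted p = 3.34e-05). Ncapd2 was at 448, 367, 429.6 and 425 CPM in the controls, 76.96, 84.7 and 79.6 CPM after LLC supernatant and 37.8, 36.5 and 39.4 CPM after MC38 supernatant (-1.09 ± 0.08, adjusted p = 4.17e-06). The supernatant groups lay apart in these genes too. The other condensin genes differed by -0.79 (Ncapg), -0.63 (Smc2) and -0.56 (Smc4).

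Control replicate 2, the library with epithelial transcripts, had the lowest level of its group in all 48 genes, with a sum of 7620 CPM against 9331 to 9679 CPM in the others. Its sums of G1/S (3540 CPM), progenitor (1405), neutrophil (1439), macrophage (713.2) and classical monocyte genes (11890) were also the lowest of the controls. Those of epithelial (97.7 CPM), red cell (21.9) and fibroblast and endothelial genes (62.6) were the highest. The share of all genes lowest in control replicate 2 was not computed. That library still lay above every treated library except for Pttg1. Of all tested genes, 37.8% had every control above every LLC supernatant library and 31.4% had every control above every MC38 supernatant library. Without the 5 libraries 47 genes were called between the supernatants, 45 of them lower after MC38 supernatant, with a median of -1.01 (58.8% of all genes called).

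Pttg1 (chr11:43420244-43427463 on GRCm38) stood apart from the other genes in culture. It was at 17.5, 14.1, 16.4 and 17.3 CPM in the controls, 19.2, 19.04 and 19.3 CPM after LLC supernatant and 39.7, 41.8 and 40.8 CPM after MC38 supernatant. The log2 difference between the supernatants was 1.09 ± 0.09, adjusted p = 7.45e-06, and that from control was 0.23 ± 0.08, adjusted p = 0.0252 for LLC and 1.32 ± 0.08, adjusted p = 1.36e-07 for MC38 supernatant. No library of MC38 supernatant came near the other groups. Across all 9 groups Pttg1 was thus higher on the MC38 side in tumor monocytes, macrophages and culture, while its spleen levels were 23.6 to 30.8 CPM (LLC) and 27.1 to 32.8 CPM (MC38), not called different (0.13 ± 0.11, adjusted p = 0.384). Part of its counts had been divided by the authors' estimate, since its value was not whole in 31 of 34 libraries. That was not particular to Pttg1: Birc5, Nuf2 and Ube2c, which followed most of the genes, were not whole in any of the 34 libraries. Bub3 and Cenpa, which departed from most, had whole values throughout.

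The tumor difference and the culture difference were tested against each other in 1 fit over all 34 libraries. The MC38-minus-LLC difference was more positive in tumor monocytes than in culture for 45 of the 48 genes and more negative for none, with a median of 2.68 (all genes: 30.8% called, 14.8% more positive). The smallest adjusted p values belonged to Anln (3.43 ± 0.22, adjusted p = 6.95e-13), Racgap1 (2.11 ± 0.16, adjusted p = 2.36e-11), Kif4 (4.27 ± 0.37, adjusted p = 6.69e-10), Tpx2 (4.16 ± 0.36, adjusted p = 9.75e-10) and Cenpe (3.53 ± 0.32, adjusted p = 1.77e-09). Pttg1 (0.20 ± 0.16, adjusted p = 0.362), Bub3 (-0.17 ± 0.10, adjusted p = 0.218) and Smc4 (0.29 ± 0.24, adjusted p = 0.392) were not called. The plot of the tumor difference against the culture difference shows most genes in the quadrant of higher in the tumor and lower in culture. Tumor and culture also differ in tissue of origin and exposure, which cannot be told apart here.

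**Figure D3:**
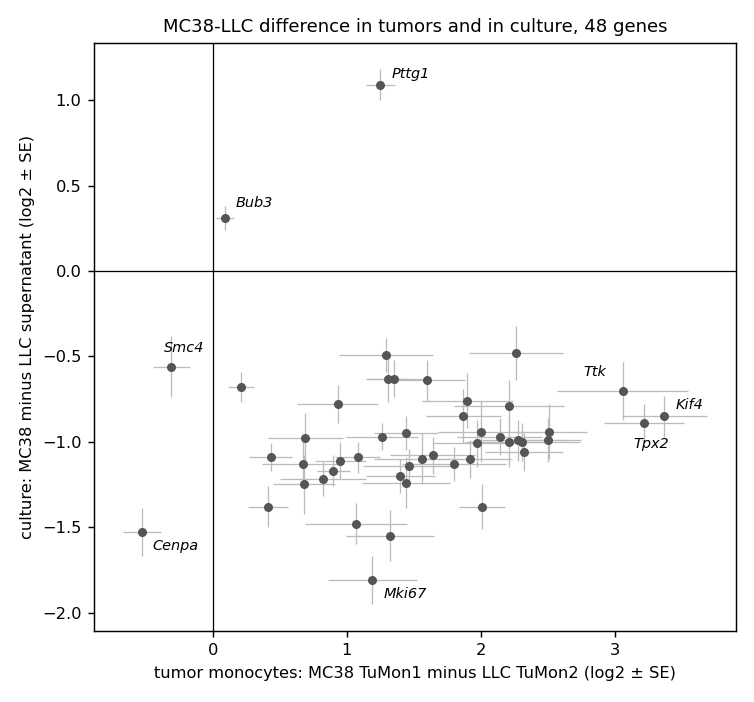
Each point is 1 of the 48 genes: the log2 difference of MC38 TuMon1 from LLC TuMon2 on the horizontal axis and of MC38 from LLC supernatant on the vertical axis, with bars of 1 SE. Most points lie right of 0 and below 0; Pttg1 lies above 0 on both axes (1.25 and 1.09) and Cenpa below 0 on both (-0.53 and -1.53).

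The levels per length of tumor monocytes were led by the same 5 genes in both tumors. In mean CPM per kilobase of exon, the leading genes of LLC TuMon2 were Cenpa (22.98), Pttg1 (15.3), Bub3 (14.2), Smc4 (13.1) and Incenp (8.73), and the next gene, Bub1b, was at 2.27. These 5 also led in MC38 TuMon1, with Pttg1 at 36.3 and Top2a next at 6.74. In MC38 macrophages the order changed: Top2a led (40.1), followed by Smc4 (38.2), Mki67 (27.3), Incenp (26.1) and Pttg1 (24.5). In the control cultures Top2a (169.5) and Mki67 (155) led and Pttg1 (9.24) was among the lowest 3.

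**Figure D4:**
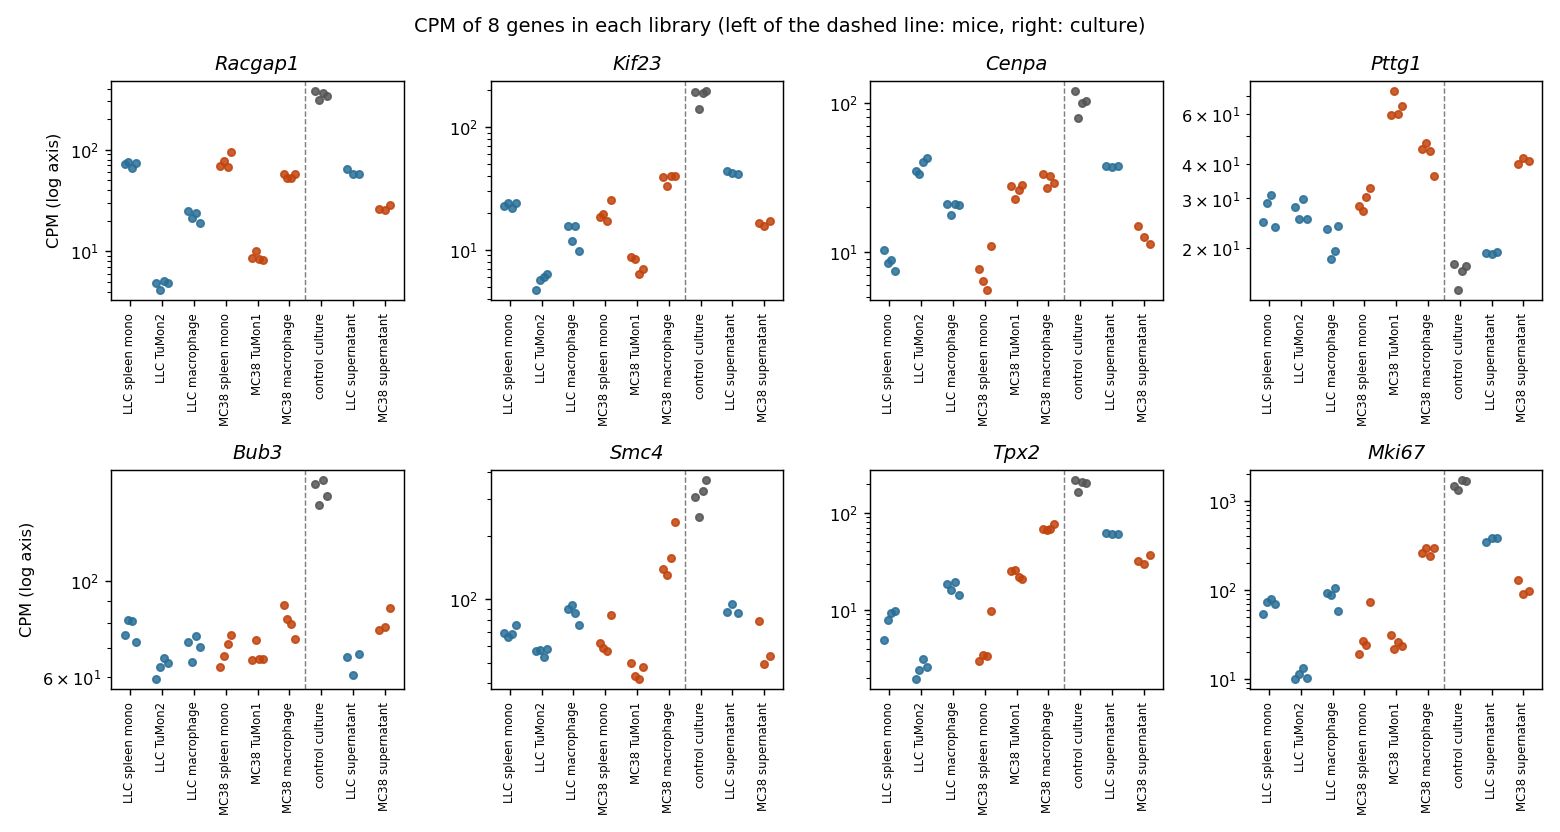
CPM (log axes) of 8 genes in each library, by group, with mouse libraries left and cultured libraries right of the dashed line; blue points are LLC, red MC38 and grey control libraries. Among the mouse libraries Racgap1 is highest in spleen and Cenpa lowest there, and Kif23 is higher in spleen than in tumor monocytes. Pttg1 is high in MC38 TuMon1 and after MC38 supernatant. By mean of the mouse groups, Tpx2 and Mki67 are lowest in LLC TuMon2 and highest in MC38 macrophages.

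Other cell cycle genes were read from lists chosen beside the 48. For these lists, the shares of all tested genes were 26.8% higher and 22.1% lower in tumor monocytes, and 21.6% higher and 18.5% lower between the supernatants. Of 66 further G2/M genes 52 were higher and 2 lower in TuMon1 than in TuMon2 (median 1.57), among them separase Espl1 (1.25 ± 0.10, adjusted p = 5.02e-10), Tacc3 (1.58) and Kntc1 (2.72). Of 47 genes of the G1/S transition and DNA replication 42 were higher and 1 lower (median 1.02), among them the replicative helicase subunit Mcm4 (1.30 ± 0.11, adjusted p = 5.93e-10). The lower gene was the transcription factor E2f2 (-1.23 ± 0.10, adjusted p = 2.59e-10). In culture 4 of the 66 were higher and 49 lower after MC38 than after LLC supernatant (median -0.83), and 1 of the 47 higher and 25 lower (median -0.30). Thymidine kinase Tk1 (-1.50 ± 0.15, adjusted p = 3.47e-05) and the phosphatase Cdc25b (-1.37 ± 0.06, adjusted p = 1.37e-07) were lower.

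The ratio of the summed 48 genes to the summed 47 G1/S genes also differed by group. It was 0.493 to 0.550 in TuMon2 and 0.493 to 0.541 in TuMon1, which overlapped, against 0.662 to 0.731 in LLC macrophages and 0.844 to 0.967 in MC38 macrophages. In spleen monocytes, at 0.714 to 0.790 with LLC tumors and 0.656 to 0.856 with MC38 tumors, it lay above every tumor monocyte library. In culture it was 2.15 to 2.35 in the controls, 1.26 to 1.32 after LLC supernatant and 0.731 to 0.847 after MC38 supernatant, with no overlap. The sums weigh abundant genes most. In TuMon2 replicate 1, Bub3 (59.3 CPM), Smc4 (56.6), Cenpa (34.6), Incenp (29.1) and Pttg1 (27.9) were part of a sum of 308.8 CPM. Without Racgap1 and Kif23 the mean sum was 411.2 CPM in MC38 spleen (508.6 with them) and 308.1 CPM in TuMon2 (318.5 with them). In MC38 spleen replicates 2 and 3 the sums without those 2 genes were 350.0 and 348.6 CPM, beside G1/S sums of 671.8 and 660.3 CPM. TuMon2 replicate 4 held 308.1 CPM beside 581.1 CPM, and LLC spleen replicate 1 held 466.0 CPM beside 786.5 CPM. On these sums the higher spleen ratio held for LLC spleen but not for every MC38 spleen library. The ratio without the other abundant genes was not tested.

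Of 15 tested genes that restrain the cell cycle, 3 were higher and 5 lower in TuMon1 than in TuMon2 (median -0.21), and of 16 tested in culture 5 were higher and 5 lower after MC38 supernatant. The stress gene Gadd45a (-1.60 ± 0.17, adjusted p = 3.75e-08) and the inhibitor Cdkn2d (-0.85 ± 0.10, adjusted p = 1.58e-07) were lower, and the anti-proliferative gene Btg2 was higher (0.76 ± 0.13, adjusted p = 3.34e-05). The p21 inhibitor Cdkn1a did not pass the test in tumor monocytes (adjusted p = 0.987), and it was higher after MC38 than after LLC supernatant (1.99 ± 0.12, adjusted p = 1.3e-06). From MC38 monocytes to macrophages 9 of the 15 were lower, Cdkn1a among them (-1.19 ± 0.21, adjusted p = 5.42e-05), and 3 were higher, Cdkn2c among them (2.69 ± 0.29, adjusted p = 1.05e-07). Of all genes 27.9% were lower and 24.8% higher in that comparison.

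Of 12 genes of the late cell cycle transcription machinery, 8 were higher and 1 lower in TuMon1 (median 0.32), where 26.8% and 22.1% of all genes were. After MC38 supernatant 4 were higher and 5 lower than after LLC supernatant, where 21.6% and 18.5% of all genes were. B-Myb (Mybl2), which joins the MuvB complex in dividing cells, rose by 2.46 ± 0.19, adjusted p = 1.61e-10, and Lin54, the MuvB subunit that reads the CHR, by 0.96 ± 0.11, adjusted p = 1.63e-07. The NF-Y subunit Nfyb was lower (-0.51 ± 0.08, adjusted p = 1.49e-05). In culture Mybl2 (-0.24 ± 0.08, adjusted p = 0.0388) and Lin54 (-0.36 ± 0.09, adjusted p = 0.00897) were lower after MC38 supernatant and Nfyb was higher (0.37 ± 0.08, adjusted p = 0.00471), each in the opposite direction to that in the tumor monocytes.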

How the data were processed

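Poly(A) RNA of sorted mouse myeloid cells had been made into libraries with a stranded mRNA kit and amplified by PCR, per the labels' protocols. The authors deposited 1 table with the expected count (an estimated count) of each Entrez Gene ID in the 34 libraries. Of its values 14.62% were not whole, so reads had been divided between genes. CASAVA 1.8.2 and the builds GRCm38 and mm10 are named in the submitters' processing notes, while for the aligner and the counter the tool is not given in the sources used here. IDs were matched to RefSeq symbols (24375 of 24475); the 100 unmatched IDs held 1.43% of counts. The design had assumed whole counts, so values were rounded, and the totals of the libraries moved by at most 0.000368%.

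Groups came from the sample titles, since the tumor field of the MC38 mouse samples counts up from sample to sample and goes against the line that the titles name. Genes were filtered with filterByExpr, scaled by TMM and tested with the quasi-likelihood F-test of edgeR 4.0.16 in R 4.3.3, with Benjamini-Hochberg adjustment over all genes tested and a threshold of 0.05. Mouse libraries (24; 13200 genes, coefficient of biological variation 0.177) and cultured libraries (10; 12603 genes, 0.282) were fitted separately, and 1 fit of all 34 (14582 genes) gave only the tumor-culture difference. The SE is the absolute log2 difference divided by the square root of F. CPM use the TMM-scaled totals. The script was tested on simulated counts. Totals of 13047772 to 26966644 limit precision mainly for the genes with few counts in LLC tumor monocytes. Of 1632 values of the 48 genes 382 were not whole, in 15 genes.

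The 48 genes, the gene lists and the marker lists were chosen with earlier results of these data known. A gene was given library by library if its adjusted p was among the 3 smallest of its role in the tumor monocyte or the supernatant comparison, or if its direction differed from most; of other lists at most 3 genes were to be named by the same order. Mki67, Prc1, Ect2, Cdkn1a, Cdkn2c, Mybl2, Lin54 and Nfyb outside the comparison that named them were chosen after their values were seen. Motifs and tables were made with Python 3.11.15 and pandas 2.3.3, and plots with matplotlib 3.10.9. Alternatives were DESeq2 1.42.0, 2 other scalings, other filters, only the groups compared, a replicate block, each library left out, and the 5 libraries with transcripts of other tissues left out. Replicate numbers were checked for pairing and showed no clear pairing, and the check cannot exclude samples that share a mouse.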

Additional observations from a re-analysis of the deposited data

Results flagged for a closer look

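In 11 of 70 sums over the 48 genes or a role, 1 library stood apart from the other 3 of its group by a Dixon test at 95%, which chance alone passes in about 1 group in 20. The role sums are parts of the sum of all 48 in the same libraries. The 70 checks are therefore not independent, and their number cannot be weighed against chance. The fourth MC38 spleen monocyte library stood above its group in 7 of them: all 48 genes (726.6 CPM), cyclins and CDK1 (23.76), mitotic kinases and Foxm1 (33.16), centromere and kinetochore (34.74), passenger complex (55.26), kinesins (62.21) and chromosome structure (239.2). Control replicate 2 stood below its group in 3: all 48 genes (7620 CPM), mitotic kinases and Foxm1 (558.2), and spindle assembly and cytokinesis (1194). MC38 macrophage replicate 4 stood above its group in chromosome structure (930.0 CPM). Of 54 checks of named genes in the tumor monocyte groups 4 stood apart, all in TuMon1: Bub1b (14.46 CPM), Bub3 (72.98) and Racgap1 (10.04) in replicate 2, and Kif15 (1.865) in replicate 4.

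Effects that differed between the tumors, or between tumor and culture, by an interaction term in edgeR were these. The tumor-minus-spleen change differed in 46 genes, with log2 differences of 4.42 for Kif4, 2.32 for Anln, 3.98 for Tpx2, 3.21 for Ndc80 and 3.06 for Cenpe among them. The macrophage-minus-monocyte change differed in 9 genes, among them Incenp (0.92), Smc4 (1.24), Cenpa (1.13), Kif23 (1.12), Prc1 (1.73) and Tpx2 (-1.19). The MC38-LLC difference in tumor monocytes differed from that in culture in 45 genes, among them Anln (3.43), Racgap1 (2.11), Kif4 (4.27), Tpx2 (4.16) and Cenpe (3.53).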

How the results depend on the processing

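The 8 alternatives were scaling, filter, tool, replicate block, only the groups compared, and without the 5 libraries. Over them 42 to 46 of the 48 genes were called in tumor monocytes (32.4% to 61.0% of all genes). The counts were 45 to 47 for LLC tumor against spleen (42.4% to 69.7%) and 47 to 48 in each macrophage comparison (30.4% to 62.9%). They were 46 to 48 between supernatants (21.9% to 58.8%) and 48 for each supernatant against control (43.7% to 80.3%). For the macrophage-monocyte difference between tumors 8 to 12 were called (8.9% to 21.1%), and for tumor against culture 45 (20.7% to 43.0%). For the tumor-spleen difference 44 to 46 were called (28.5% to 47.6%), apart from the fit without the 5 libraries (median 1.34). Leaving out 1 library at a time gave 37 to 42 in tumor monocytes (39.2% to 42.1% of all genes) and 45 to 47 between supernatants (26.2% to 40.3%). It gave 45 for tumor against culture (25.3% to 30.3%). For the tumor-spleen and macrophage-monocyte differences between tumors it gave 45 to 46 (36.7% to 46.8%) and 7 to 8 (9.5% to 13.1%). For MC38 tumor against spleen, 17 genes were called with only the groups compared (69.2% of all genes) and 18 to 36 without 1 library (66.4% to 72.8%). Without the 5 libraries, which leaves 1 MC38 spleen library, the median was -0.30. For MC38 against LLC spleen, 0 were called with only the groups compared (7.9% of all genes). Without 1 library 4 to 43 were called (4 without MC38 replicate 3, with 19.0% of all genes, and 43 without MC38 replicate 4, with 47.3%). Without the 5 libraries the median was 0.21.

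Without the 5 libraries, log2 differences that had been called over all libraries changed sign for MC38 tumor against spleen in Top2a (-0.10), Ccna2 (-0.29), Kif20a (-0.04), Kif20b (-0.09), Kif2c (-0.27), Prc1 (-0.31), Birc5 (-0.10), Cdca8 (-0.37) and Smc2 (-0.17). They changed sign for MC38 against LLC spleen in Mki67 (0.09), Top2a (0.19), Ccnb2 (0.10), Ccna2 (0.26), Bub1 (0.01), Kif11 (0.17), Kif20a (0.03), Kif22 (0.23), Tpx2 (0.30), Nusap1 (0.24), Incenp (0.03), Cdca8 (0.28) and Ncapd2 (0.02). The cause was not tested. Among single genes these were the 22 sign changes, while 311 values lost a call, 76 gained one and 10438 did neither.

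Same-numbered replicates showed no clear shared deviation (correlations of -0.283 to 0.154 in the mouse libraries and -0.363 to 0.273 in culture). Between monocytes and macrophages of LLC tumors they were -0.027 to 0.154, against -0.122 to 0.077 for unlike numbers. In MC38 tumors they were -0.014 to 0.148 against -0.14 to 0.08. Weak pairing in these groups is not excluded. With the replicate block 45 genes were called in tumor monocytes against 44 without it, and every other count moved by at most 1. Upper-quartile scaling shifted the median of all genes by about 0.1 or more on the log2 scale in MC38 tumor against spleen (-0.04 to -0.18), LLC tumor against spleen (-0.05 to -0.15) and macrophages against monocytes of LLC (0.06 to 0.21) and MC38 tumors (-0.02 to 0.09).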
